A study of Mus musculus with 7 samples.

Results

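The genes described here carry the cAMP signal from the cell membrane to the nucleus. They are 36 genes chosen by name: 8 adenylyl cyclases, 7 genes of protein kinase A (PKA) subunits and its inhibitor, 4 genes of the CREB family and its coactivator CBP, 3 CRTC coactivators, 3 SIK kinases, 9 cyclic nucleotide phosphodiesterases and 2 EPAC exchange factors. The deposited table holds 55487 genes, of which 14020 passed a filter on low counts and were tested. All 36 members were among them. RNA came from suprachiasmatic nucleus (SCN) microdissected out of thick frozen sections. The SCN is the hypothalamic nucleus that keeps daily time for the body. The advanced glaucoma group (3 libraries) consisted of mice of the strain the design text calls DBA2J. That strain carries a Gpnmb mutation, and in it eye pressure rises and the retina is damaged. The control group (4 libraries) was the strain DBA/2J-Gpnmb+SjJ, which lacks that mutation. All samples of both groups carry the genotype label WT, and the age, sex and hour of collection of these mice are not recorded there. Both groups were housed in equal periods of light and dark.

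Adenylyl cyclases make cAMP when receptors engage the stimulatory G protein. The nucleotide releases the catalytic subunits of PKA from the regulatory subunits, and phosphodiesterases break it down again. PKA phosphorylates CREB, which binds the cAMP response element (CRE) of target genes, and it also lets CRTC coactivators enter the nucleus by restraining the SIK kinases. EPAC proteins are a second, PKA-independent route that activates the small GTPase Rap. In the SCN this pathway is known to be engaged by the peptides VIP and PACAP and by light signals from the retina, and to feed back on the clock through CRE-bearing clock genes.

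The libraries held 2174456 to 5285093 counts. Levels are given as CPM, counts per 1000000 after TMM normalisation. Where a level is given for every library, the order is scn_cont_565, scn_cont_567, scn_cont_568 and scn_cont_570 for control and scn_glauc_152, scn_glauc_153 and scn_glauc_154 for advanced glaucoma. The counts come from the 3′ ends of transcripts. Gpnmb had 0 to 2 counts in each of the 7 libraries, so its level is no check of the group labels. Library scn_cont_565 was the shallowest and lay apart from the rest on the first principal component, at -50.81 against -1.61 to 20.4. Several marker lists moved with the groups. Of 15 SCN neuron genes, 12 fell. Their summed level was 2243 to 7570 CPM in the controls and 544 to 3621 CPM in advanced glaucoma libraries, most of it from Avp, and without Avp it was 852 to 1179 CPM and 386 to 430 CPM. Of 15 oligodendrocyte and myelin genes 1 fell, and their sum was 4457 to 5690 CPM in the controls and 3596, 5038 and 2487 CPM in libraries scn_glauc_152, scn_glauc_153 and scn_glauc_154. Astrocyte genes (2 of 11 fell) summed to 3947 to 4621 CPM and 3761 to 3889 CPM, and genes of the neighbouring tuberal and lateral hypothalamus (1 of 10 tested rose) to 151 to 805 CPM and 957 to 1791 CPM. All 10 tested tuberal and lateral genes had a positive log2 fold change, with a median of 1.03, and 9 of the 11 astrocyte genes had a negative one. Of the 15 oligodendrocyte and myelin genes, 14 had a negative one as well, with a median of -0.48. Pan-neuronal genes (1 of 10 rose) overlapped between groups, at 4020 to 4346 CPM and 3909 to 4839 CPM, as did microglial genes at 392 to 472 CPM and 389 to 426 CPM and vessel genes at 269 to 338 CPM and 270 to 293 CPM. No defining marker of SCN neurons, myelin, astrocytes, microglia or vessels was at 0 in any library. The part of these cell types and of neighbouring tissue in the differences below was not tested. In bulk tissue, fewer cells of a type, less RNA per cell and another share of neighbouring tissue in the piece taken cannot be told apart.

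None of the 36 members passed the test of advanced glaucoma against control. At an adjusted p under 0.05 the count was 0 of 36 by edgeR's quasi-likelihood test with Benjamini-Hochberg adjustment, against 0.471% of all genes tested (0.378% lower and 0.0927% higher), and it was also 0 by DESeq2 and by limma-voom. The smallest adjusted p among the members was 0.127. At an unadjusted p under 0.05 there were 11 members, or 30.6%, where 8.2% of all genes tested were under that value. Of these, 8 were lower in advanced glaucoma (22.2% of members, against 4.15% of all genes) and 3 were higher (8.33%, against 4.05%). The members were chosen with earlier results of these data known, so shares here and below describe them and are not an independent comparison. The 11 were Adcy2, Adcy3, Adcy7, Prkacb, Crtc1, Sik1, Pde1a, Pde1b, Pde1c, Pde4a and Pde7b, so 5 of the 9 phosphodiesterases were among them. DESeq2 and limma-voom each gave 10 members at an unadjusted p under 0.05, against 6.67% and 9.22% of all genes. With a myelin covariate (the mean log2 level of the myelin list) in the model the count was 3 of 36, or 8.33%, against 5.56% of all genes. It was 5 of 36 without library scn_cont_570 (6.77% of all genes), 5 without library scn_glauc_154 (6.06%) and 9 without library scn_cont_565 (8.76%). The myelin list itself moved with the groups, as given above, and with the covariate calls over all genes went from 66 to 16. That fit can have less power to find a group difference, so a count or call lost with it is no test of myelin.

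The groups did not overlap for 5 members (13.9%, against 8.02% of all genes tested). Pde1b and Pde7b were lower in every advanced glaucoma library than in any control library (5.56% of members, against 3.91% of all genes), and Prkacb, Crtc1 and Pde1a were higher (8.33%, against 4.12%). Median log2 fold change over the members was 0.06, and -0.007 over all genes tested. The 95% interval of the log2 fold change lay within 0.5 of 0 for 18 of the 36 members, against 42.8% of all genes tested. For the other members a larger difference was within the interval.

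**Figure D1:**
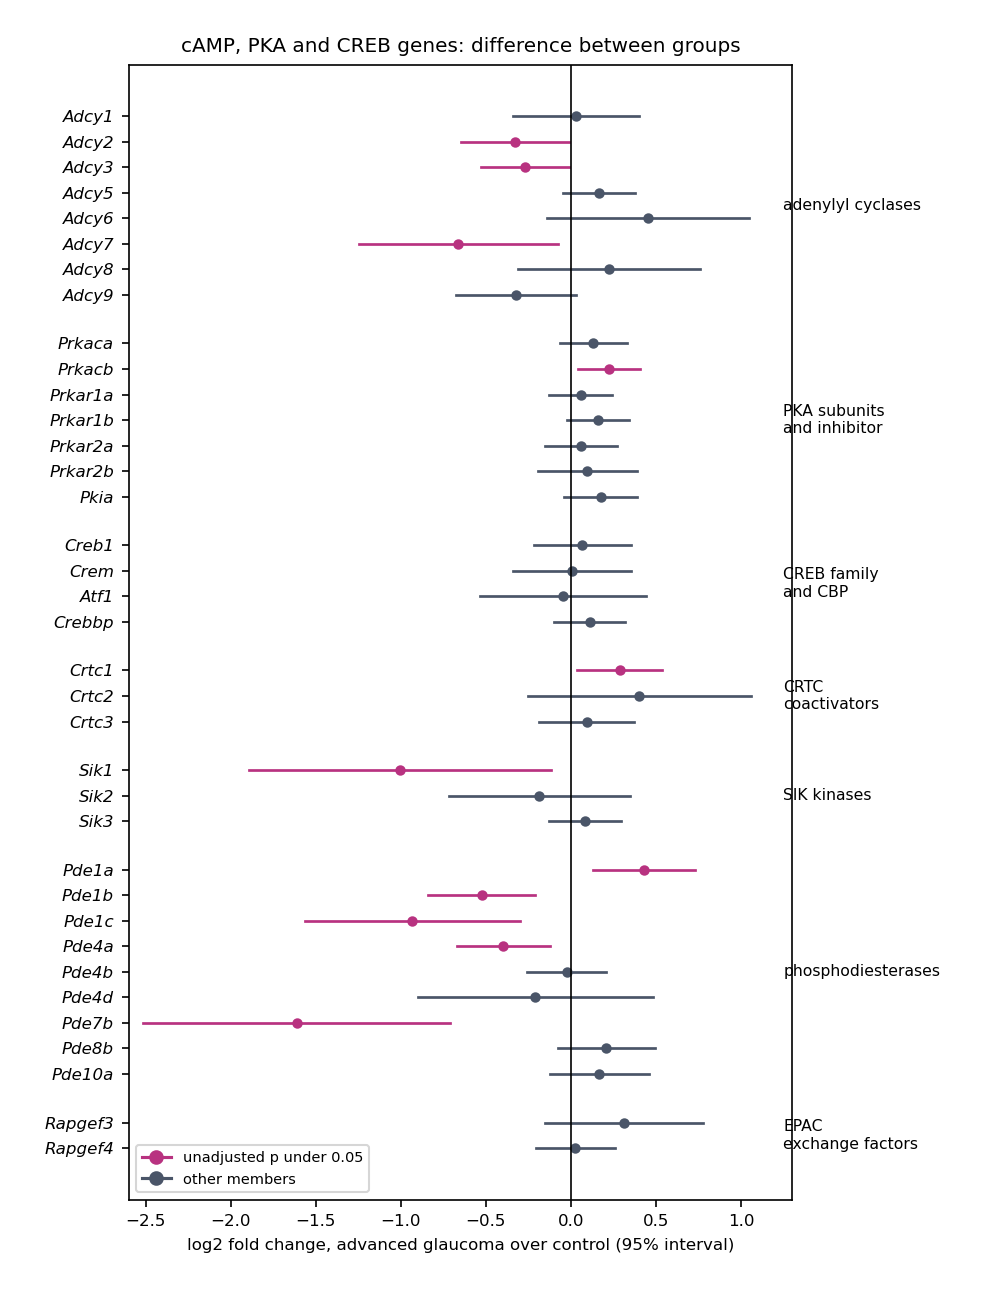
Log2 fold change of each member, advanced glaucoma over control, with its 95% interval from the edgeR fit, grouped by step of the pathway. The PKA genes lie within a narrow range to the right of 0, from 0.06 to 0.22, while the phosphodiesterases spread from -1.61 to 0.43.

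None of the adenylyl cyclases passed. Of the 8 genes, 4 had a negative and 4 a positive log2 fold change, with a median of -0.12, and their summed level was 367 to 427 CPM in the controls and 328 to 413 CPM in advanced glaucoma libraries. Adcy7, a cyclase that in the brain is prominent in microglia, was at 9.93, 9.79, 16.9 and 19.5 CPM in the controls and at 7.09, 12.3 and 8.03 CPM under advanced glaucoma. Libraries scn_glauc_152 and scn_glauc_154 were below every control library and library scn_glauc_153 was among them (edgeR adjusted p = 0.523, log2 fold change -0.66, SE 0.283). Adcy2, a calcium-insensitive cyclase stimulated by G protein beta-gamma subunits, was at 114, 62.4, 79.8 and 86.6 CPM and at 63.8, 76.5 and 62.0 CPM. Its highest value was in library scn_cont_565, and the log2 fold change moved from -0.33 (adjusted p = 0.589 by edgeR) to -0.18 without that library.

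Adcy3, the cyclase of neuronal primary cilia, was at 83.4, 86.3, 74.9 and 72.2 CPM in the controls and at 57.1, 79.5 and 59.3 CPM under advanced glaucoma, again with library scn_glauc_153 inside the control range (edgeR adjusted p = 0.590, log2 fold change -0.27). Adcy3 overlaps Cenpo on the opposite strand, and it is unknown whether counting used the strand. The calcium-stimulated cyclases Adcy1 and Adcy8 stood at 0.03 (95% interval -0.34 to 0.40) and 0.22 (-0.31 to 0.76) on the log2 fold change scale. Adcy5, the main cyclase of the striatum, had a log2 fold change of 0.17 (-0.05 to 0.38), with 109 ± 6.65 CPM in the controls and 122 ± 10.7 CPM under advanced glaucoma (SD, n = 4 and n = 3). Adcy9 was at 35.5 ± 5.05 and 28.3 ± 6.07 CPM. Adcy6 ran from 5.46 CPM in library scn_cont_565 to 23.6 CPM in library scn_cont_567 among the controls, and was at 21.6 to 24.8 CPM under advanced glaucoma.

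PKA genes lay close together. All 7 had a positive log2 fold change, from 0.06 to 0.22, and each 95% interval lay within 0.5 of 0, yet none passed the test. Their summed level was 2031, 2021, 1989 and 2037 CPM in the controls and 2218, 2286 and 2208 CPM under advanced glaucoma. Every advanced glaucoma library was above every control library in that sum. The same held for the summed CRTC genes, at 105.5 to 120.2 CPM in the controls and 120.6 to 147.3 CPM under advanced glaucoma. The sums of the other steps overlapped. These sums were not tested, and no share over all genes stands beside them. Prkacb, the catalytic subunit beta that is abundant in neurons, was at 521, 557, 485 and 482 CPM and at 607, 565.3 and 618 CPM. The groups did not overlap, and the difference was small (edgeR adjusted p = 0.446, 1.17-fold, log2 fold change 0.22, SE 0.0890, 95% interval 0.04 to 0.41). Prkar1b, a regulatory subunit of neurons, was at 628, 552, 573 and 593 CPM and at 619, 693 and 654 CPM (edgeR adjusted p = 0.705, log2 fold change 0.16), with library scn_glauc_152 below library scn_cont_565. Gm15672 overlaps Prkar1b on the same strand.

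For the other PKA genes the interval of the fold left room for small differences only. Prkaca, the catalytic subunit alpha, was at 241 ± 21.6 CPM in the controls and 265 ± 13.2 CPM under advanced glaucoma, with an interval of 0.956-fold to 1.26-fold. For Prkar1a, the regulatory subunit present in most tissues, the interval was 0.916-fold to 1.18-fold. For Prkar2a and Prkar2b, the type II subunits that bind anchoring proteins, it was 0.901-fold to 1.21-fold and 0.873-fold to 1.31-fold. Pkia, the alpha form of the PKA inhibitor peptide, was at 120 ± 9.64 and 136 ± 14.2 CPM (0.971-fold to 1.31-fold). The ratio of catalytic to regulatory subunit counts, which needs no scaling factor, was 0.643 to 0.676 in control libraries and 0.737, 0.633 and 0.719 in libraries scn_glauc_152, scn_glauc_153 and scn_glauc_154. Libraries scn_glauc_152 and scn_glauc_154 were above the control range and library scn_glauc_153 was below it.

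Of the 30 members with a RefSeq promoter window, Prkar1a was the only one with a whole CRE. Windows cover 250 bases before to 50 bases after a start site, and Pkia, Adcy6, Crem, Crtc2, Sik1 and Adcy8 were not searched. The palindrome TGACGTCA was found in 1 of these 30 members and in 2.03% of all 27025 genes with a window, while the shorter core TGACG or its complement CGTCA was found in 15 of the 30 and in 23.0% of all genes. The letters were searched on both strands, and each palindrome also contains both forms of the core. Members had 63 windows in all, of which 27.0% held a core, against 20.8% of all windows. The same palindrome lies in 2 overlapping Prkar1a windows, with its first base 49 bases before one annotated start and 38 bases after the other. The window in which it precedes the start is shown because it carries the letters that CREB binds at a gene of its own upstream kinase, with palindrome and core in capitals (GRCm38.p6, chr11:109650699-109650998, plus strand).
Prkar1a: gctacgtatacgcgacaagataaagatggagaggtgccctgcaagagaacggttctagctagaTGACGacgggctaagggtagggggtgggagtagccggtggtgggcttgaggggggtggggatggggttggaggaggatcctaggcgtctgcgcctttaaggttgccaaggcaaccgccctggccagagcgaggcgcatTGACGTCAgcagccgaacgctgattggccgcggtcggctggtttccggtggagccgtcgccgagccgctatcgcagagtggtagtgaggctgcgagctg
Prkar1a itself had a log2 fold change of 0.06 (95% interval -0.13 to 0.24, adjusted p = 0.935 by edgeR). Its transcript end lies 92 bases from that of Fam20a on the opposite strand.

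**Figure D2:**
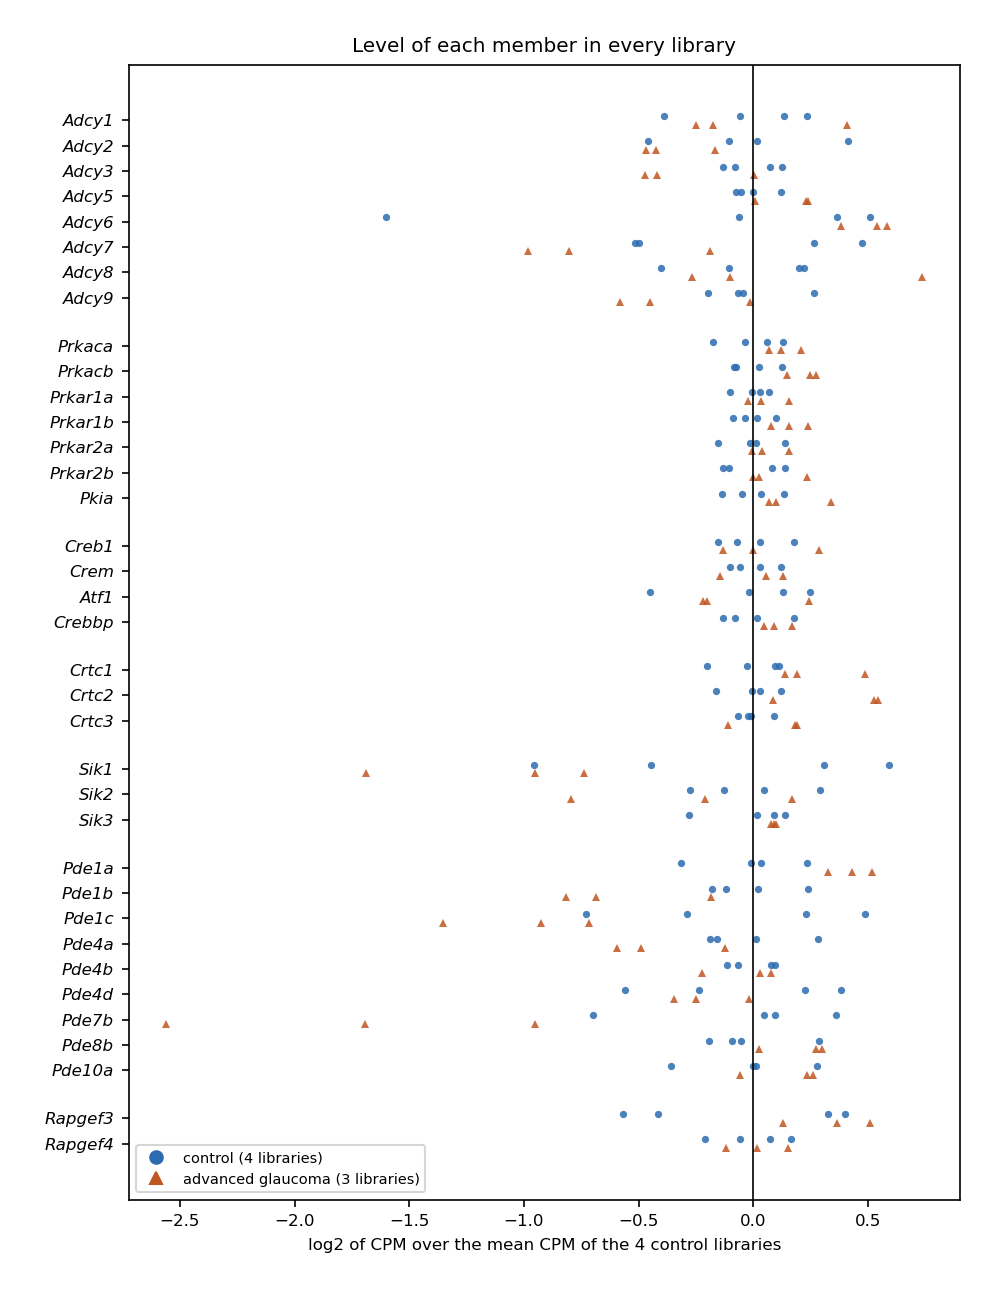
Level of each member in every library as the log2 of its CPM over the mean CPM of the 4 control libraries, with circles for control and triangles for advanced glaucoma. For Pde7b all 3 triangles lie left of the control circles, and for Prkacb, Crtc1 and Pde1a they lie to the right.

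The CREB family and CBP differed little between groups. Creb1, the factor that PKA phosphorylates, was at 54.1, 45.6, 48.8 and 43.0 CPM in the controls and at 43.7, 47.8 and 58.4 CPM under advanced glaucoma, with the groups fully interleaved (edgeR adjusted p = 0.956, log2 fold change 0.07, 95% interval -0.22 to 0.35). Crebbp, which encodes the acetyltransferase CBP that phosphorylated CREB recruits, was at 145, 129, 121 and 117 CPM and at 136, 132 and 144 CPM (edgeR adjusted p = 0.883, log2 fold change 0.11, 95% interval -0.10 to 0.32). Crem, which also gives rise to the inducible repressor ICER, was at 24.5 ± 1.69 and 24.8 ± 2.37 CPM (95% interval -0.34 to 0.36). The count of the gene does not separate ICER from other Crem transcripts. Atf1, a close relative of CREB, was at 13.8 ± 2.72 and 13.4 ± 2.55 CPM.

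All 3 CRTC coactivator genes had a positive log2 fold change and none passed. Crtc1, the coactivator most abundant in brain, was at 70.0, 64.3, 70.9 and 56.9 CPM in the controls and at 74.9, 72.2 and 91.9 CPM under advanced glaucoma. The groups did not overlap, with library scn_glauc_153 only slightly above the highest control (edgeR adjusted p = 0.517, log2 fold change 0.29, SE 0.122, 95% interval 0.04 to 0.54). Crtc2 was counted 11 to 40 times per library and had a log2 fold change of 0.40 (95% interval -0.26 to 1.06), so a change of more than 2-fold was within its interval. Crtc3 had a log2 fold change of 0.09 (-0.19 to 0.37).

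Among the SIK kinases, which phosphorylate CRTC coactivators and hold them in the cytoplasm, the low values were those of Sik1. Sik1 is itself induced by CREB and light in the SCN. It was at 9.43, 4.59, 3.22 and 7.74 CPM in the controls and at 3.74, 3.23 and 1.94 CPM under advanced glaucoma, from 7 to 43 counts per library. Library scn_cont_568 was at the level of libraries scn_glauc_152 and scn_glauc_153, and the 95% interval of the log2 fold change of -1.01 ran from -1.89 to -0.12 (adjusted p = 0.526 by edgeR). Sik2 was at 10.7 to 15.9 CPM in the controls and 7.48 to 14.6 CPM in advanced glaucoma libraries, and it overlaps Ppp2r1b on the opposite strand. Sik3 was at 134 to 178 and 171 to 174 CPM, with an interval of 0.914-fold to 1.23-fold.

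Phosphodiesterases had the widest range of log2 fold changes of the 7 steps. Of 9 genes, 4 had an unadjusted p under 0.05 with lower levels in advanced glaucoma (4.15% of all genes tested) and 1 with higher levels (4.05%), and the remaining 4 ran from -0.21 to 0.21 on the log2 scale. Pde7b, a cAMP-specific enzyme (ENSMUSG00000019990, chromosome 10, 20398004 to 20725078, mm10), was at 8.94, 4.29, 7.44 and 7.20 CPM in the controls and at 1.18, 2.15 and 3.60 CPM under advanced glaucoma. It rested on 14 to 40 counts per control library and on 6, 10 and 13 counts in libraries scn_glauc_152, scn_glauc_153 and scn_glauc_154. The groups did not overlap, and the log2 fold change was -1.61 (SE 0.437, 95% interval -2.51 to -0.71, adjusted p = 0.127 by edgeR). The adjusted p ran from 0.0357 to 0.702 over the 13 alternatives that tested it and passed in 1, with no filter on low counts. With the myelin covariate the log2 fold change was -1.76, and of the 11 members with an unadjusted p under 0.05 it was the only one still under that value (unadjusted p = 0.0109 by edgeR).

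The PDE1 enzymes are activated by calcium and calmodulin, and their 3 genes did not go the same way. Pde1b (ENSMUSG00000022489, chromosome 15, 103503034 to 103530052) was at 70.5, 55.1, 52.8 and 60.7 CPM in the controls and at 33.9, 52.6 and 37.1 CPM under advanced glaucoma. Library scn_glauc_153 was just under the lowest control (edgeR adjusted p = 0.184, log2 fold change -0.52, SE 0.152). Pde1b passed without library scn_glauc_153 (log2 fold change -0.74, adjusted p = 0.0256) and with no filter on low counts (adjusted p = 0.0430), in a range of 0.0256 to 0.956 over 14 alternatives. The annotated end of Pde1b lies 226 bases from that of Ppp1r1a, a protein phosphatase inhibitor gene on the opposite strand, which had a log2 fold change of -0.52 as well (adjusted p = 0.0914 by edgeR). With the strand setting unknown, reads past the end of either gene could count for the other. Pde1c (chromosome 6, 56069804 to 56569103) was at 17.9, 10.4, 7.68 and 14.9 CPM and at 6.70, 7.76 and 4.99 CPM, with library scn_cont_568 below library scn_glauc_153 (edgeR adjusted p = 0.273, log2 fold change -0.93, SE 0.307).

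Pde1a (chromosome 2, 79834453 to 80129458) was the exception among the PDE1 genes. It was at 36.7, 43.5, 29.7 and 37.8 CPM in the controls and at 49.9, 46.3 and 52.9 CPM under advanced glaucoma, with no overlap (edgeR adjusted p = 0.309, 1.35-fold, log2 fold change 0.43, SE 0.145, 95% interval 0.13 to 0.73). The ratio of Pde1a to Pde1b counts within a library was 0.521, 0.789, 0.563 and 0.623 in control and 1.47, 0.881 and 1.43 in advanced glaucoma. That of Pde1a to Pde1c was 2.06 to 4.18 in control and 5.97 to 10.6 in advanced glaucoma. Neither ratio overlapped between groups. Both were chosen after the values were seen and were not tested.

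The PDE4 family hydrolyses cAMP alone and includes the targets of rolipram. Pde4a was at 75.9, 77.4, 87.2 and 105 CPM in the controls and at 61.7, 79.5 and 57.3 CPM under advanced glaucoma, with library scn_glauc_153 inside the control range (edgeR adjusted p = 0.295, log2 fold change -0.40, SE 0.133). Pde4b was at 76.9 to 89.0 and 71.5 to 87.9 CPM, with an interval of 0.838-fold to 1.15-fold. Pde4d had 9 to 33 counts per library and a log2 fold change of -0.21 with a 95% interval of -0.90 to 0.48. Pde8b, a high-affinity cAMP enzyme, and Pde10a, a dual cAMP and cGMP enzyme known for its high level in striatal neurons, had log2 fold changes of 0.21 (-0.08 to 0.49) and 0.17 (-0.13 to 0.46). In the same libraries the striatal marker genes (0 of 10 tested passed by edgeR, 1, Penk, by DESeq2 and 0 by limma-voom, with 3 at an unadjusted p under 0.05) summed to 517 to 638 CPM in the controls and 405 to 537 CPM under advanced glaucoma, and Adora2a, a defining gene of striatal neurons, had 0 to 5 counts.

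**Figure D3:**
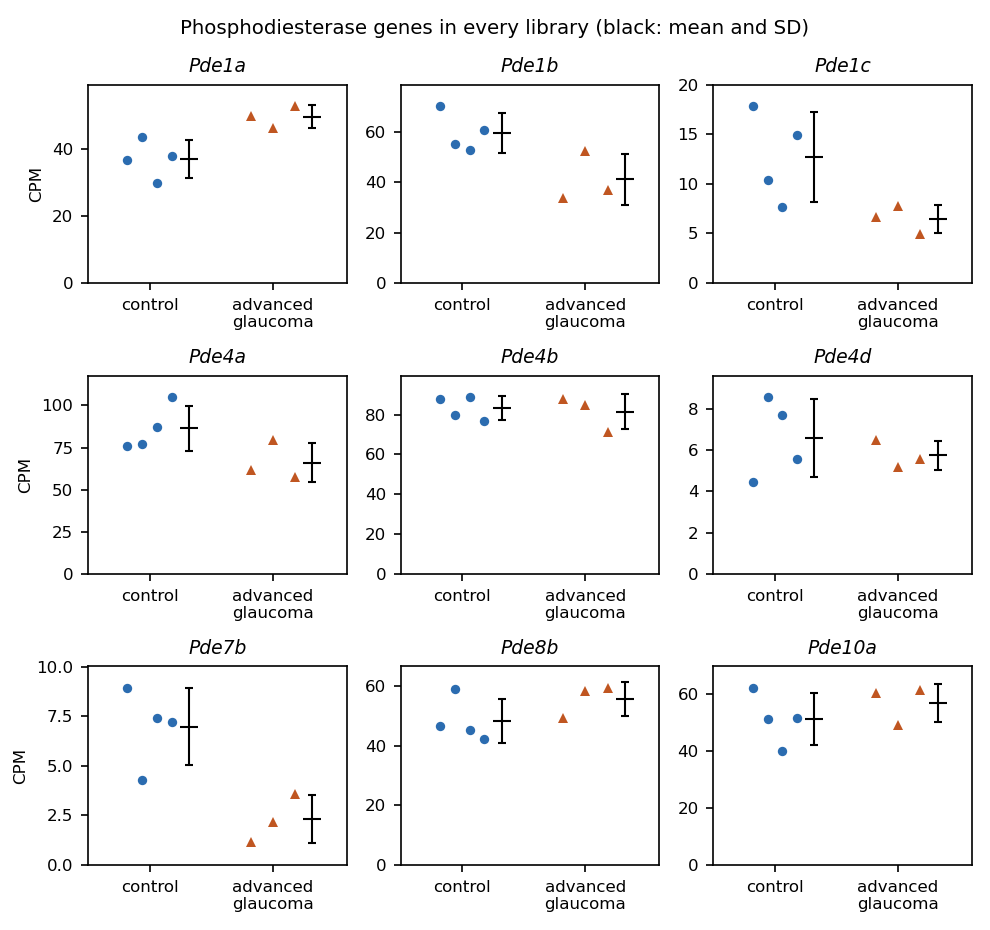
CPM of the 9 phosphodiesterase genes in every library, with circles for the 4 control and triangles for the 3 advanced glaucoma libraries and the mean and SD of each group in black. Pde7b and Pde1b are lower and Pde1a is higher in all 3 advanced glaucoma libraries than in any control library.

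The members were also examined with each library left out in turn. Pde1a, Pde1b, Pde1c and Pde7b had an unadjusted p under 0.05 in all 7 such fits, and they were the only 4 of the 36 members to do so, where 2.4% of all genes tested did. Across these fits the log2 fold change ran from 0.33 to 0.51 for Pde1a, from -0.74 to -0.39 for Pde1b, from -1.12 to -0.76 for Pde1c and from -2.04 to -1.28 for Pde7b. Prkacb, Crtc1, Sik1, Pde4a and the 3 cyclases were over that value in at least 1 fit.

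In Adcy3, Adcy7, Pde1b and Pde4a, libraries scn_glauc_152 and scn_glauc_154 were the lowest of all 7 and library scn_glauc_153 lay within or just under the control range. The summed myelin list was likewise lower in scn_glauc_152 and scn_glauc_154 than in scn_glauc_153, at 0.689, 0.965 and 0.477 of the control mean in libraries scn_glauc_152, scn_glauc_153 and scn_glauc_154. The SCN list without Avp was at 0.408, 0.366 and 0.397. With the myelin covariate the log2 fold changes were -0.12 for Adcy3, -0.17 for Adcy7, -0.27 for Pde1b and -0.11 for Pde4a, against -0.27, -0.66, -0.52 and -0.40 without it. Smaller differences with the covariate were not particular to these genes. Of the 11 members with an unadjusted p under 0.05, 10 had one, among them Adcy2 (-0.10), Crtc1 (0.11), Prkacb (0.12) and Pde1a (0.27), and so did 64.5% of the 1150 genes under that value over all genes tested. The part of myelin or oligodendrocytes in these differences was not tested. Adcy3 and Pde4a fall outside the rule for values in every library, and these 4 genes were set side by side after their values were seen. They were picked for a pattern over the libraries that the myelin list shares. Their smaller differences with the covariate therefore follow in part from that choice and are no test.

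**Figure D4:**
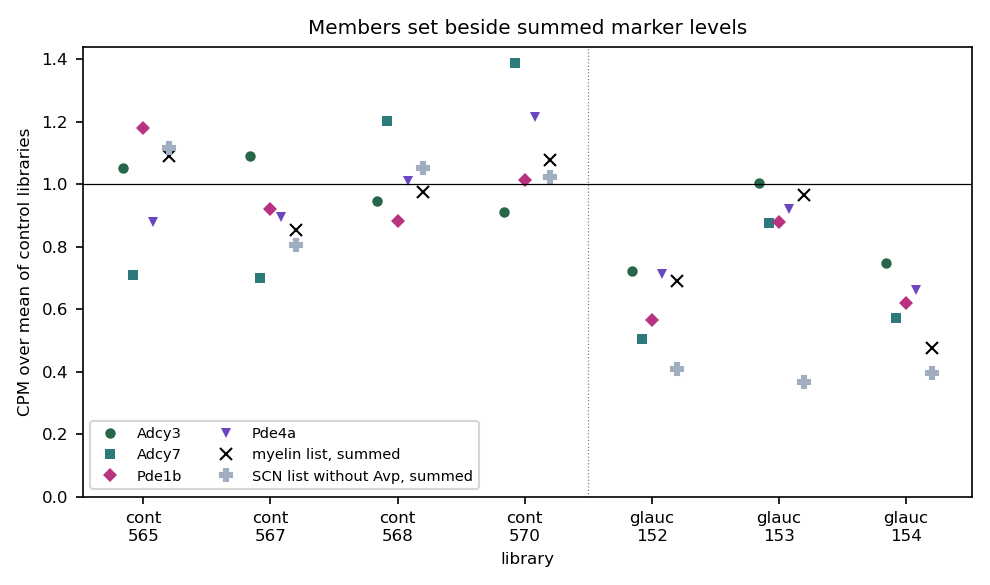
CPM of Adcy3, Adcy7, Pde1b and Pde4a in each library over the mean of the 4 control libraries, beside the summed CPM of the myelin list and of the SCN list without Avp on the same scale. Libraries scn_glauc_152 and scn_glauc_154 are low in the 4 members and in the myelin list, while the SCN list is at 0.366 to 0.408 in all 3 advanced glaucoma libraries. The 4 members were picked for this pattern after their values were seen.

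The 2 EPAC genes did not differ by the test. Rapgef3, EPAC1, was at 10.9, 21.4, 12.1 and 20.4 CPM in the controls and at 20.9, 23.1 and 17.7 CPM under advanced glaucoma (edgeR adjusted p = 0.796, log2 fold change 0.31, 95% interval -0.15 to 0.78). The controls formed a low and a high pair, and the advanced glaucoma libraries were near the high one. Rapgef4, EPAC2, the neuronal form, was at 88.1 ± 9.80 and 89.3 ± 8.33 CPM, with a 95% interval of the log2 fold change of -0.21 to 0.26.

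Around these members, 91 other genes of the pathway were listed and 78 were tested. Of the 78, 7 were lower in advanced glaucoma with an adjusted p under 0.05 by edgeR, and 0 were higher. Over all genes tested the shares were 0.378% lower and 0.0927% higher. Of these 7 genes, 5 were on the list of genes known to respond to CREB, given below. None of the 9 G protein alpha subunit genes passed by edgeR, DESeq2 or limma-voom, with 0 at an unadjusted p under 0.05 and each 95% interval within 0.5 of 0. Gnas, which encodes the stimulatory subunit that turns on the cyclases, was at 2881, 2802, 2930 and 3387 CPM in the controls and at 2889, 2858 and 2436 CPM under advanced glaucoma (log2 fold change -0.14, 95% interval -0.33 to 0.05). None of 14 anchoring protein genes and none of 9 further phosphodiesterase genes passed by any of these tools. At an unadjusted p under 0.05 there was 1 of each (7.14% and 11.1%, against 8.2% of all genes tested). Over the 78 genes that count was 20, or 25.6%, of which 13 were on the list of genes known to respond to CREB. Ppp1r1b, or DARPP-32, a PKA-regulated phosphatase inhibitor of the striatum, was at 16.9 ± 4.44 and 18.2 ± 3.40 CPM.

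Pkib, the beta form of the PKA inhibitor, was the exception close to the kinase. The gene (ENSMUSG00000019876, chromosome 10, 57631981 to 57741112) was at 65.0, 59.4, 73.4 and 74.9 CPM in the controls and at 50.4, 31.5 and 35.2 CPM under advanced glaucoma, with no overlap between groups. It fell 1.75-fold (edgeR adjusted p = 0.00873, log2 fold change -0.80, SE 0.151, 95% interval -1.12 to -0.49). Its relatives Pkia, given above, and Pkig, at 79.2 ± 6.18 and 80.7 ± 9.99 CPM, did not pass. The Pkib call held in 11 of 14 alternatives, over an adjusted p of 7.02e-06 to 0.332, and was lost without library scn_glauc_153 (0.0510), without library scn_glauc_154 (0.0977) and with a myelin covariate (0.332). The log2 fold changes there were -0.66, -0.74 and -0.82, so with the covariate the difference was as large as without it. In these libraries the SCN list was low as well, as given above, and the part of SCN neurons in the Pkib difference was not tested.

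Creb3l1 fell 1.93-fold, with means of 27.6 ± 6.05 and 14.1 ± 2.88 CPM (edgeR adjusted p = 0.0311). It shares the bZIP domain with CREB but is a membrane-bound factor of the secretory pathway and no classical PKA target. The call held in 8 of 14 alternatives and was lost without any of libraries scn_cont_565, scn_cont_568, scn_cont_570, scn_glauc_152 and scn_glauc_154 and with a myelin covariate, at an adjusted p of up to 0.888.

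Some genes known to respond to CREB fell. Of 24 such genes, 5 fell (Vgf, Fos, Nr4a3, Scg2 and Vip) and 0 rose, and 10 were lower and 3 higher at an unadjusted p under 0.05. Over all genes tested, 0.378% fell and 0.0927% rose, and 4.15% were lower and 4.05% higher at an unadjusted p under 0.05. The list was made with earlier results of these data known, so the contrast with all genes is a description and not an independent comparison. The median log2 fold change of the list was -0.37, beside -0.007 over all genes tested. Fos, an immediate early gene, was at 41.2, 39.5, 43.6 and 44.5 CPM in the controls and at 24.0, 19.6 and 21.0 CPM under advanced glaucoma (edgeR adjusted p = 0.00160, log2 fold change -0.97). The groups did not overlap, and the Fos call was lost in 1 of 14 alternatives, the myelin covariate (edgeR adjusted p = 0.129), where the log2 fold change was as large, at -0.98. Vip, a peptide of the SCN core that is also in the SCN list, had a control mean of 112 ± 37.7 CPM (SD, n = 4) and was at 1.18, 3.02 and 3.88 CPM under advanced glaucoma (edgeR adjusted p = 0.00884, log2 fold change -5.41). The advanced glaucoma libraries held 6 to 14 Vip counts each. Vgf, a secreted peptide precursor, was at 178, 182 and 170 CPM against 268 to 408 CPM. It had a log2 fold change of -0.98 and kept its call in all 14 alternatives, while Nr4a3, Scg2 and Vip kept theirs in 11, 8 and 10. Without library scn_glauc_153 the list had 3 calls, without library scn_glauc_154 it had 2, and with a myelin covariate 1, Vgf. With the covariate the log2 fold changes were -0.45 for Scg2, -1.04 for Nr4a3 and -4.88 for Vip, against -0.43, -1.26 and -5.41 without it.

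The other 19 genes of the list did not pass. Sst, the somatostatin gene in which the CRE was first defined, was at 1134 ± 186 and 990 ± 116 CPM (log2 fold change -0.20, 95% interval -0.44 to 0.04). The 3 with a higher level at an unadjusted p under 0.05 were Pdyn, at 64.2 ± 26.2 and 148 ± 27.2 CPM, Nptx2, at 17.4 ± 8.01 and 39.3 ± 14.9 CPM, and Rgs2, at 79.5 ± 24.0 and 109 ± 3.01 CPM. SCN neuron genes were low in the same libraries, Vip and Scg2 are made by SCN neurons themselves, and the part of cell makeup in these differences was not tested.

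**Figure D5:**
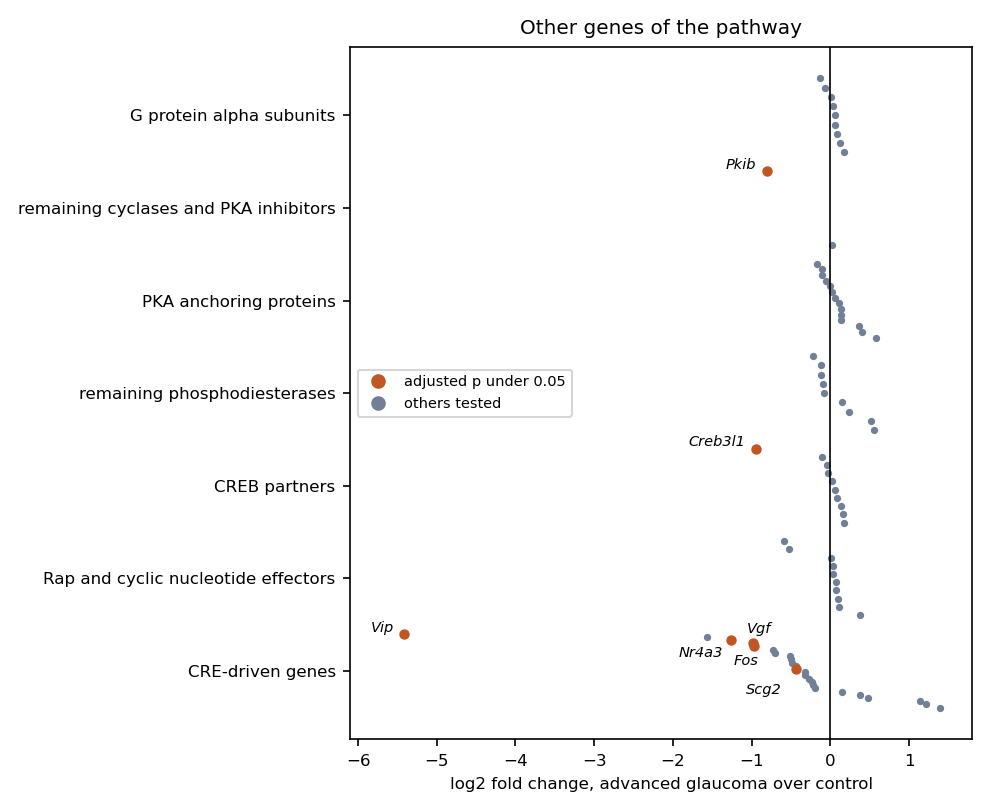
Log2 fold change, advanced glaucoma over control, of the 78 tested pathway genes that are not members, by list, with those past an adjusted p of 0.05 in orange and named. Apart from Pkib and Creb3l1, genes from G proteins to Rap effectors lie between -0.59 and 0.58, while the CRE-driven list spreads from -5.41 to 1.39.

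Promoter windows of the CREB-responsive list often held CRE letters. Of the 17 genes of the list with a window, 16 had the core and 5 a whole palindrome, against 23.0% and 2.03% of all genes. The list was made of genes known for such elements, so the count describes how it was chosen. The windows of 4 genes that fell and of Sst are shown, because the core stands before genes that fell by different amounts and before one that did not pass. Vgf, the other gene that fell, had no core among the windows searched and is not shown. Among the windows shown, only those of Scg2 and Sst hold the whole palindrome. Cartpt, Dusp1 and Pcsk1, which did not pass either, also had a palindrome and are not shown. They run 5′ to 3′ on the strand of the gene in GRCm38.p6, with palindromes and cores in capitals. They lie at chr1:79439977-79440276 (Scg2, minus strand), chr16:23890795-23891094 (Sst, minus), chr12:85473640-85473939 (Fos, plus), chr4:48045055-48045354 (Nr4a3, plus) and chr10:5638968-5639267 (Vip, plus).
Scg2: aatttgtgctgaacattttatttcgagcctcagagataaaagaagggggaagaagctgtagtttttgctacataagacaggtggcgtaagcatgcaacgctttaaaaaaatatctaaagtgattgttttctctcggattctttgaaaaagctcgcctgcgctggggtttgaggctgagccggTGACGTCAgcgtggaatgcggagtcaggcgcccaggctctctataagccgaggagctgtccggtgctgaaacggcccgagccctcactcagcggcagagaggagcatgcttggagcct
Sst: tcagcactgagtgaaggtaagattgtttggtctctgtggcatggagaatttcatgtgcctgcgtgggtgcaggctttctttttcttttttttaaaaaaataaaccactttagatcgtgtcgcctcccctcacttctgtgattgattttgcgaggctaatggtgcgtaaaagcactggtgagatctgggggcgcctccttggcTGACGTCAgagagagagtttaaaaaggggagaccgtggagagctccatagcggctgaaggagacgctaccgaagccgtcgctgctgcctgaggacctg
Fos: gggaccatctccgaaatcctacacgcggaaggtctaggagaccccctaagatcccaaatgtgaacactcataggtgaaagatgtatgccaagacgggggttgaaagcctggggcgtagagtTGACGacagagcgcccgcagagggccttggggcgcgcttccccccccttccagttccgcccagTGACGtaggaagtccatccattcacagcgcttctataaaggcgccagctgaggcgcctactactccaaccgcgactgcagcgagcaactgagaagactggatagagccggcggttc
Nr4a3: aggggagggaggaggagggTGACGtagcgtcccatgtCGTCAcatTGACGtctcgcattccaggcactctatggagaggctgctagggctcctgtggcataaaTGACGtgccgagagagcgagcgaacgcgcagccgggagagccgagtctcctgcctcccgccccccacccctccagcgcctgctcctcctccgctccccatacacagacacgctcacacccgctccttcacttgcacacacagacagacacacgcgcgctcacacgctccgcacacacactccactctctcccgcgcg
Vip: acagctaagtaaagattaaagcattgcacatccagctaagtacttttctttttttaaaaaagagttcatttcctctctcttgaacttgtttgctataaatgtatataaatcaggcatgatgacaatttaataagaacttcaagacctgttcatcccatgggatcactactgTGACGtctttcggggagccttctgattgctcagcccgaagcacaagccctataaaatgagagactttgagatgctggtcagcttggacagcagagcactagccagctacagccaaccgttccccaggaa
Scg2 and Sst each had 1 whole palindrome, Fos 2 cores, Nr4a3 4 and Vip 1. The log2 fold changes were -0.43 for Scg2, -0.97 for Fos, -1.26 for Nr4a3 and -5.41 for Vip, and that of Sst was -0.20 and did not pass. A match of letters does not show binding.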

How the data were processed

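RNA from microdissected SCN was made into BRB-seq libraries with the MERCURIUS kit, per the labels' protocols. BRB-seq counts barcoded transcript 3′ ends. The authors deposited raw counts per gene, and every column was used. STAR, HTSeq, featureCounts and DESeq2 and the build mm10 are named in the submitters' processing notes. Their roles, the annotation, the strand setting and any collapse of molecular identifiers are not given in the sources used here, so counts may be reads.

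Symbols came from a gene name table (55141 of 55487 identifiers matched), coordinates from GENCODE M21 (GRCm38, the assembly of mm10) and promoter windows from RefSeq (GRCm38.p6). Genes were filtered with filterByExpr, scaled by TMM and tested with edgeR 4.0.16 in R 4.3.3 (robust quasi-likelihood fit, group as the only term), with Benjamini-Hochberg adjustment over 14020 genes at 0.05. Each SE was back-calculated from the F statistic. Alternatives used DESeq2 1.42.0, limma 3.58.1 (voom with sample weights), other scalings and filters, the mean log2 CPM of a myelin list as a covariate, and each library left out. Scripts were tested on simulated data. The labels give each library its own number and the design text speaks of mice, so libraries were taken as separate mice. The p-values rest on the spread between these libraries, and in each fit the spread of a gene was drawn toward that of all genes tested.

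Members and lists were chosen with earlier results of these data known. Values in every library were to be given for members past the threshold, for the members with the smallest p in each step and for those whose groups do not overlap at an unadjusted p under 0.05. Adcy3, Pde1c and Pde4a were added after their values were seen, as were other pathway genes that did not pass, apart from Gnas and Ppp1r1b. Intervals rest on the spread between libraries, likewise drawn toward that of all genes tested, and no set test was run.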

Additional observations from a re-analysis of the deposited data

How the results depend on the processing

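No paired analysis was possible because the groups share no replicate number. No member passed in the 14 alternatives except Pde7b and Pde1b with no filter on low counts (2 members) and Pde1b without library scn_glauc_153, so members called ran from 0 to 1 with a library left out. Genes called over all genes were 202 with no filter and 16 with the myelin covariate, against 66, and 28 to 93 with a library left out. Members with an unadjusted p under 0.05 were 3 with the myelin covariate and 5 to 13 with a library left out. Members without overlap between groups were 7 to 10 with a library left out, against 5, since fewer libraries overlap less. The share of all genes without overlap was not computed for those fits, so these counts have no background beside them. Other pathway genes called were 14 with no filter and 1 with the myelin covariate, against 7, and 2 to 10 with a library left out.

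Direction held in every alternative for 26 of the 36 members. The other 10 had intervals that spanned 0, and none passed in either direction. With the myelin covariate the log2 fold change was -0.063 for Creb1, -0.067 for Crem, -0.077 for Crtc3, 0.081 for Sik2, 0.10 for Pde4b, -0.019 for Pde10a and 0.0038 for Gnas. Crem was at -0.011 with limma-voom weights. With a library left out the values ran from -0.21 to 0.16 for Adcy1, -0.16 to 0.42 for Adcy8, -0.051 to 0.16 for Creb1, -0.055 to 0.085 for Crem, -0.20 to 0.034 for Atf1, -0.44 to 0.018 for Sik2, -0.082 to 0.061 for Pde4b, -0.042 to 0.090 for Rapgef4 and -0.022 to 0.31 for Ppp1r1b. The cause was not tested. Scaling by RLE factors or library size moved the median of all genes by less than 0.01.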

Other observations

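Several pathway genes outside the members had an unadjusted p under 0.05 without passing the adjusted threshold, and are given as values. Hcn2, a pacemaker channel gated by cyclic nucleotides, was at 47.0 ± 13.9 CPM across the controls and 30.6 ± 5.77 CPM under advanced glaucoma (edgeR adjusted p = 0.266, means ± SD over 4 and 3 libraries). Rap2a, a small GTPase of the Rap family, was at 76.2 ± 13.9 and 99.1 ± 5.06 CPM, with every advanced glaucoma library above every control library (edgeR adjusted p = 0.260). Pde9a, a cGMP-specific phosphodiesterase, was at 14.4 ± 3.41 and 21.0 ± 4.91 CPM.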
